A study of Mus musculus with 24 samples.

Results

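Casp2-depleted cardiomyocyte (CM) nuclei of mouse hearts were compared between postnatal day 1 (P1) and postnatal day 7 (P7). The members were all libraries labelled XMLC2+Casp2fl/fl at these ages, 4 at P1 and 4 at P7, which made 8 of the 24 libraries of the series. Both groups carried the loxP-flanked Casp2 alleles and the XMLC2-Cre transgene, whose promoter is active in CMs, so that Casp2 was to be lost in CMs and kept in the other cells of the heart. Libraries labelled XMLC2-Casp2fl/fl, which carried the flanked alleles without the Cre, served as controls (3 kept libraries at P1 and 4 at P7). Nuclei were sorted for PCM1, a centriolar satellite protein that lies around the nucleus of CMs. Each library came from pooled hearts, 15 hearts at P1 and 6 at P7, so a replicate was a pool and not an animal. Animals were used without regard to sex, and the sexes in each pool are not given. The animals were of the C57BL/6N background and no agent was given.

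Caspase-2 is the protease of the PIDDosome, in which the scaffold PIDD1, held at the centrosome by ANKRD26, activates caspase-2 through the adaptor CRADD. Extra centrosomes switch the complex on. In cancer cells and hepatocytes caspase-2 then cleaves MDM2, so that p53 is stabilised and cells that failed to divide stop cycling. For CMs the study reports that the complex limits ploidy independently of p53, and proposes that p21 acts downstream. In the first postnatal week many rodent CMs copy their DNA without dividing and most leave the cell cycle. In the same days they exchange fetal for adult sarcomere proteins and turn from glycolysis to the oxidation of fatty acids.

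Reads lay near the 3′ ends of transcripts and were counted over whole genes, introns included. The 8 libraries held between 1220640 and 2924097 reads on genes and 11230 to 17770 detected genes. At these depths 3 reads, the number that a count of 0 allows, corresponded to 1.03 to 2.46 counts per 1000000 reads on genes (CPM) in a single library, which covers counting error alone. Levels below are CPM scaled by the trimmed mean of M values (TMM), and differences are log2 fold changes of P7 over P1. Reads placed once but outside any gene made up 34.3% to 70.6%. Where another library of the group had 20 reads or more on a gene, 18.8% of the P1 values and 9.88% of the P7 values were 0, while Poisson counting would give almost none, so that single zeros carried little information. For genes with 0 reads in a group, folds given below as at least a value use 3 reads over its 4 libraries. They are bounds for counting error alone and not for the spread between pools.

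The Casp2 gene itself (chromosome 6) could not be used to check the labels. It had 0 reads in each of the 4 Casp2-depleted P1 libraries and 5, 3, 0 and 0 reads in the P7 libraries. The controls had 0 reads at P1 and 5, 3, 1 and 0 reads at P7, so the sums at P7 were 8 reads against 9. Reads at the 3′ end or in introns that stay in the deleted allele would be counted all the same.

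CM genes dominated all 8 libraries. The 8 CM markers (Myh6, Ryr2, Tnnt2, Actn2, Ttn, Pcm1, Mybpc3 and Ctnna3) summed to between 33008 and 80985 CPM without TMM scaling at P1 and between 48445 and 69555 CPM at P7. On the same scale no marker list of another cell type passed 587.1 CPM in any library, and the most abundant were the lists of endothelial and mural cells. The macrophage markers Cd68, C1qa, C1qb and Fcgr1 were at 0 in all 8 libraries, as were Egfl7 of endothelium, Slc4a1 and Hbb-bh1 of erythroid cells and Krt19 of epicardium. Over 16 library measures compared between P1 and P7 the lowest p was 0.2 and the lowest adjusted p 0.831 (exact permutation test, two-sided). The smallest possible p before adjustment was 0.0286, and a lone measure at that value could not be called after adjustment over 16 measures. The adjusted values therefore cannot show that the ages were alike in these measures.

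The P1 libraries were not alike. Reads on no gene made 49.8%, 68.2%, 70.6% and 36.8% in P1 replicates 1 to 4, and 34.3%, 47.1%, 57.7% and 64.3% in P7 replicates 1 to 4. The 10 most-read genes took 13.0%, 8.47%, 9.33% and 20.7% of the reads at P1 and 18.9%, 20.6%, 18.3% and 14.5% at P7. P1 replicate 4 therefore lay inside or beyond the P7 range in both measures, and its CM markers were the highest of the 8 libraries. Calls and sarcomere values are therefore also given without P1 replicate 4, and calls from a fit with a term for the share of reads outside genes.

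**Figure D1:**
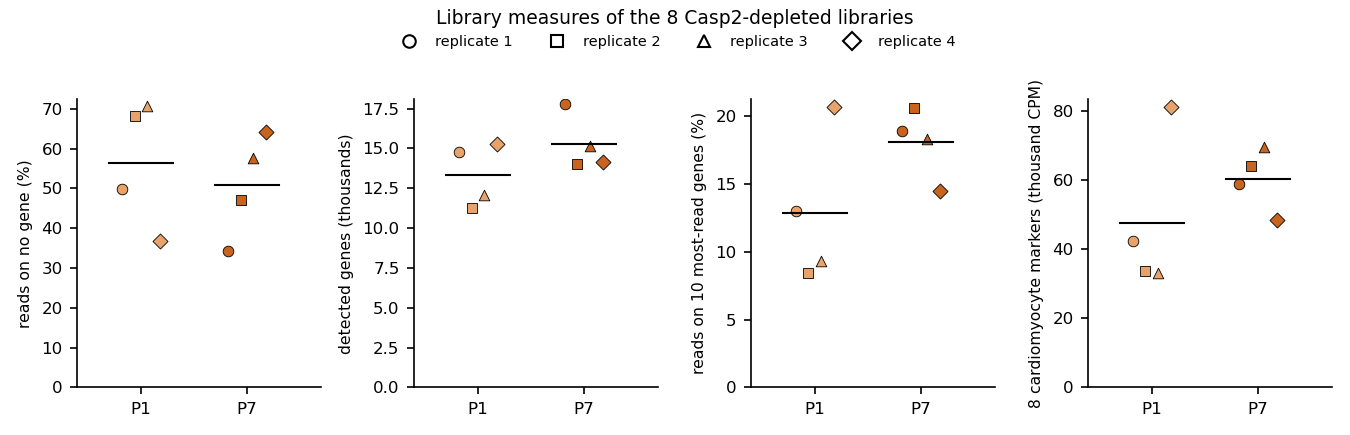
Percent of uniquely placed reads on no gene, detected genes (in units of 1000), percent of reads on the 10 most-read genes and summed CM marker level (CPM, in units of 1000) in the 4 P1 and 4 P7 Casp2-depleted libraries. Symbols give the replicate and lines the group means; P1 replicate 4 lies apart from P1 replicates 2 and 3 in every panel.

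Over the first postnatal week 4 genes rose in Casp2-depleted nuclei and none fell. The genes were Mhrt, a long noncoding RNA of the myosin heavy chain locus that binds the remodeller BRG1, Mapt, which encodes the microtubule-binding protein tau, and the splicing factors Luc7l and Rbm25. They made 0.0196% of the 20368 genes tested, against 0.0% called lower (edgeR quasi-likelihood test over the 21 libraries kept by the study, called where the Benjamini-Hochberg adjusted p was under 0.05 and the change more than 1 on the log2 scale). At an unadjusted p below 0.05, 1047 genes (5.14%) were higher and 461 (2.26%) lower at P7. These shares are the background for the list counts below. Among the 11702 genes with a mean of at least 10 CPM the shares were 1.16% and 0.402%. The groups did not overlap for 301 genes with every P7 library on top (1.48%) and for 97 with every P7 library below (0.476%). With 4 against 4 libraries and no ties, chance alone separates the groups at a rate of 0.0286 over both directions together. Over all genes the median was 0.07 on the log2 scale.

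Mhrt had 5302, 6300, 4243 and 13417 CPM in P1 replicates 1 to 4. At P7 it had 17266, 32624, 25395 and 20988 CPM. The groups did not overlap, although P1 replicate 4 came close to P7 replicate 1. The mean went from 7315 ± 4153 to 24068 ± 6601 CPM (SD, n = 4 each), a log2 fold change of 1.72 (SE 0.28, adjusted p = 3.2e-05). Mhrt lies at chr14:55205795-55229058 on the plus strand of GRCm39 and overlaps Myh6, Myh7 and Mir208b on the minus strand, and whether the counting used strand is not given in the sources used here.

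Mapt went from 62.1, 23.8, 54.0 and 63.8 CPM at P1 to 508, 379, 250 and 249 CPM at P7. It had the largest change of the 4 called genes, from 50.9 ± 18.6 to 347 ± 124 CPM, or 2.76 on the log2 scale (SE 0.59, adjusted p = 0.0344). The lowest P7 library stood well above the highest P1 library, P1 replicate 4 included. Mapt lies at chr11:104122024-104222946 on the plus strand.

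Luc7l, a component that helps the U1 snRNP choose the 5′ splice site, had 394, 190, 271 and 1018 CPM at P1. Its P7 libraries had 1070, 2269, 1945 and 1264 CPM. The groups were separated only narrowly, because P1 replicate 4 lay just under P7 replicate 1. The log2 fold change was 1.81 (SE 0.41, adjusted p = 0.0471). Luc7l lies at chr17:26471870-26504486 on the plus strand.

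Rbm25, an RNA-binding protein that acts on splice site choice, had 2184, 4606, 2945 and 5029 CPM at P1. It had 5786, 15022, 9633 and 7540 CPM at P7. The P1 and P7 values again came close in 1 library each. The log2 fold change was 1.36 (SE 0.30, adjusted p = 0.047). Rbm25 lies at chr12:83678010-83731654 on the plus strand.

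**Figure D2:**
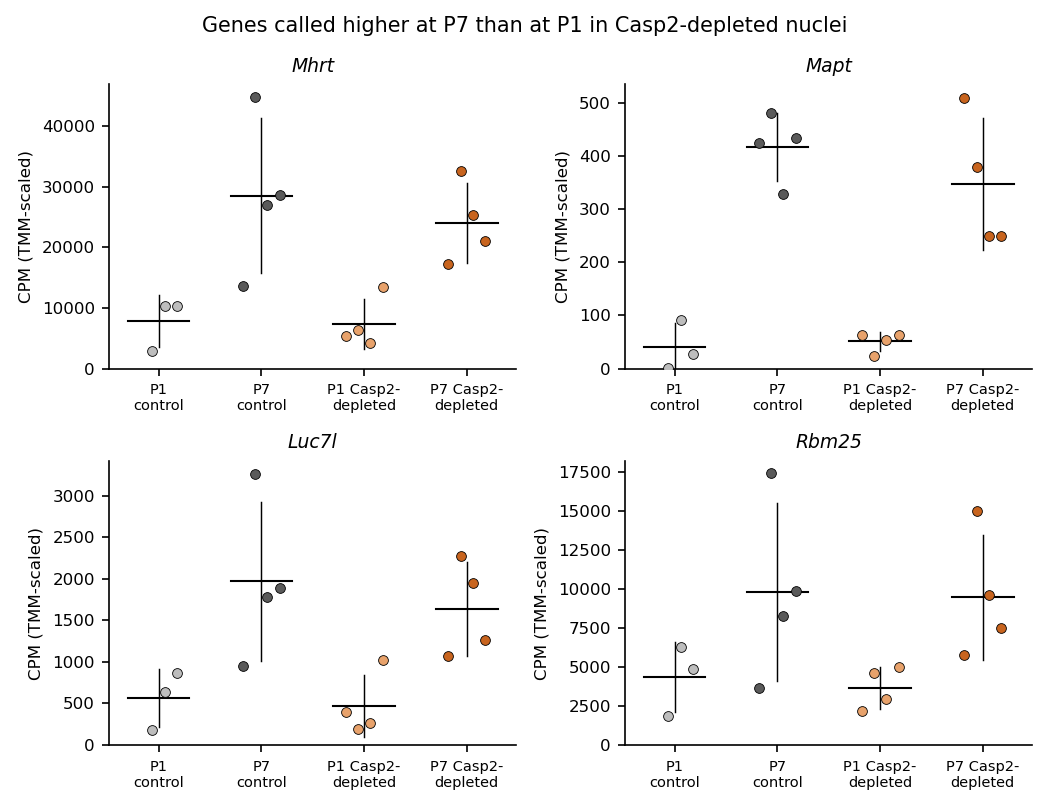
TMM-scaled CPM of Mhrt, Mapt, Luc7l and Rbm25 in each control and Casp2-depleted library at P1 and P7, with the group mean and SD as lines (3 libraries for the P1 control, 4 elsewhere). In Casp2-depleted nuclei all 4 P7 values of each gene exceed all 4 P1 values, and Mapt goes from 50.9 to 347 CPM in the mean.

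The calls depended on single libraries and on the tool. Without P1 replicate 4, 13 genes were called, all higher at P7, and among them were the 4 genes above. The others were Lmod2, Pnisr, Sptbn1, Acin1, Lmo7, Baz1b, Ice1, Fgf13 and Srek1. Without P1 replicate 1 or 3, or without P7 replicate 2 or 3, Mhrt was the only gene called, and without each of the other 3 libraries the count lay between 3 and 5. Mhrt was called in 12 of 21 alternative fits, Mapt in 9, Rbm25 in 6 and Luc7l in 4, and none of these genes changed direction in any of them. Their lowest log2 fold changes over these fits were 1.34, 2.44, 0.23 and 1.13 in this order, so that Rbm25 came close to level in at least 1 of them. In a fit with a term for the share of reads outside genes 5 genes were called, of which Mapt was among the 4 (log2 fold change 2.44), and the others were Mlf1, Lmod2, Acin1 and Ice1. Mhrt, Rbm25 and Luc7l lost their calls in that fit at log2 fold changes of 1.69, 1.28 and 1.9 (adjusted p = 0.69, 0.69 and 0.314). DESeq2 called 46 genes, of which 1 was among the 4.

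Of the called genes, Mhrt and Rbm25 had a promoter stretch available, and Mapt and Luc7l had none. Those 2 stretches and that of Ckmt2, a mitochondrial creatine kinase described below, are shown as a description. Any part of these stretches in the changes was not tested. They are the 250 bases before the RefSeq start (table of GRCm38.p6), placed on GRCm39 by exact match and written in the direction of the gene. Capitals mark matches, on either strand, to the motifs searched, except the outline of the CArG box. The Mhrt stretch is chr14:55205994-55206243 (plus), the Rbm25 stretch chr12:83682234-83682483 (plus) and the Ckmt2 stretch chr13:92025005-92025254 (minus).
Mhrt: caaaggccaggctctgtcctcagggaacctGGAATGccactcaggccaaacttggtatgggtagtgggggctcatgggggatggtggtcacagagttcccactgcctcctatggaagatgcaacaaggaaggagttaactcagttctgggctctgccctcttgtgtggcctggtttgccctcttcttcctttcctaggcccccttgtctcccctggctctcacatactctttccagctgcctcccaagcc
Rbm25: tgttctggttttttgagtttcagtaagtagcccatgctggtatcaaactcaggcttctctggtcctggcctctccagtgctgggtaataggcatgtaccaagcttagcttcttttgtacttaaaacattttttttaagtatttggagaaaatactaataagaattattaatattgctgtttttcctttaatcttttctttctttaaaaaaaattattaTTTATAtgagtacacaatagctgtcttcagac
Ckmt2: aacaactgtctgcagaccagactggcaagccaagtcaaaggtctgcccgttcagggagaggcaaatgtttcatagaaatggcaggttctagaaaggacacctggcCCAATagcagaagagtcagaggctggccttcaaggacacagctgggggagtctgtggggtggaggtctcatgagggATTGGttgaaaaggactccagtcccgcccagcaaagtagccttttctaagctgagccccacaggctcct
All of these starts lay inside the gene model of the annotation, 449, 4474 and 604 bases from its first base. The motifs searched on both strands were TATAAA of the TATA box, CCAAT bound by NF-Y, AGATAA bound by GATA factors, GGAATG bound by TEAD factors, TCAAGGTCA bound by oestrogen-related receptors, TTTNNCGC bound by E2F factors, the MEF2 box outline and the CArG box outline, the last with any letters between its ends. The Mhrt stretch held GGAATG once at 220 bases before the start, and 12.6% of 32851 promoter stretches held it too. In the Rbm25 stretch TATAAA was found on the minus strand at 32 bases before the start (12.4% of stretches). Ckmt2 had CCAAT at 2 places, 145 bases on the plus strand and 69 bases on the minus strand (33.8% of stretches). Each stretch also held 2 matches to the CArG box outline, overlapping ones in Ckmt2, as 67.1% of all did at least once. A match here is a description and not a binding site.

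Beyond the called genes, the genes with the smallest unadjusted p among those with a mean of at least 10 CPM and no overlap between groups included structural and metabolic CM genes, none of which was called (adjusted p = 0.672 each). Ckmt2, which charges creatine with phosphate in CM mitochondria, had 70.2, 106, 95.9 and 68.2 CPM at P1. At P7 it had 338, 533, 375 and 208 CPM, a log2 fold change of 2.09 (SE 0.60). That its groups did not overlap was a condition of the choice. Limch1, an activator of nonmuscle myosin, had 405, 276, 102 and 156 CPM at P1 and 955, 837, 606 and 510 CPM at P7 (log2 fold change 1.63, SE 0.45). Metap2, which removes the first methionine of new proteins, had a mean of 492 ± 260 CPM at P1 and 1277 ± 422 CPM at P7 (1.38, SE 0.42). Lsmem1, a membrane protein gene, had 100 ± 45.7 and 345 ± 99.7 CPM (1.78, SE 0.60), and the unnamed gene Gm56815 had 110 ± 44.2 and 341 ± 249 CPM. Atad2, a chromatin ATPase linked to DNA replication, had 60.1, 59.5, 8.78 and 83.2 CPM at P1 and 197, 455, 193 and 203 CPM at P7 (2.30, SE 0.75).

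Other genes of this kind were at or near 0 at P1. Mns1, a gene of motile cilia and sperm flagella, had at most 2.03 CPM at P1 and between 19.9 and 146 CPM at P7. Gm27151, the olfactory receptor Or8b53, Gm9078 and the mast cell protease gene Cpa3 had 0 reads in all P1 libraries, and were at least 60.4-fold, 64.8-fold, 54.2-fold and 45.01-fold higher at P7 against a floor of 3 reads over the 4 P1 libraries. The controls did not share this pattern for 3 of them. Gm27151, Or8b53 and Cpa3 had means of 61.6, 32.3 and 39.7 CPM in the P1 controls, against 15.0, 19.3 and 18.5 CPM in the P7 controls.

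No gene was called lower at P7. Of the genes with no overlap, 15 with the smallest unadjusted p were examined in this direction too, and most were low. Hif3a, an oxygen-responsive transcription factor of the HIF family, had 70.2, 106, 82.4 and 218 CPM at P1. It had 7.45, 21.3, 46.0 and 0 CPM at P7, a log2 fold change of -2.67 (SE 1.27, adjusted p = 0.672). A lack of overlap was a condition of the choice here too. Plek2, a lipid-binding protein of the cell cortex, had 69.8 ± 45.9 CPM at P1 and 14.0 ± 9.35 CPM at P7, and Smim13 had 75.5 ± 39.5 and 11.4 ± 8.0 CPM. Ptger4, a prostaglandin E2 receptor, had 39.1, 49.0, 27.0 and 37.9 CPM at P1 and at most 3.95 CPM at P7. Tfap2d, a transcription factor, had 43.6 ± 35.8 and 4.37 ± 5.94 CPM, and Atp1b4, a muscle protein of the nuclear envelope, had 27.5 ± 24.4 and 1.12 ± 1.30 CPM. Terb1, Ctbs, Stamos, 4930545E07Rik, Gm50058 and Gm10653 had mean levels of 21.3 to 35.4 CPM at P1 and of at most 0.875 CPM at P7. Rpl21-ps13, Gm21358 and Zfp980 had 0 reads at P7 and were at least 47.1-fold, 39.2-fold and 38.9-fold lower. Rpl21-ps13 is a pseudogene whose reads cannot be told apart from those of its parent gene where the sequences are the same.

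The adult isoforms of the sarcomere had no call, and 0 of 8 reached an unadjusted p below 0.05 (background 5.14%). Their median log2 fold change was 0.36, against 0.07 over all genes. Myh6, the adult myosin heavy chain of the mouse ventricle, had 6886, 2881, 3013 and 16117 CPM at P1. It had 13335, 11155, 13044 and 7584 CPM at P7, a log2 fold change of 0.64 (SE 0.58). P1 replicates 2 and 3 were below all P7 libraries while P1 replicate 4 was above all of them, and without it the log2 fold change was 1.36. The same order was seen in Tnni3, the adult inhibitory troponin, with 640, 249, 207 and 1627 CPM at P1 and 1511, 1602, 1393 and 878 CPM at P7 (0.98, SE 0.86, and 1.84 without P1 replicate 4). Ventricular myosin light chain Myl2 had 1355 ± 969 and 2124 ± 803 CPM (0.65, SE 0.37), and Myom2 of the M-band 114 ± 98.0 and 171 ± 105 CPM. Cardiac troponin T, Tnnt2, was close to level at 12982 ± 8126 and 14180 ± 4770 CPM (0.13, SE 0.27). Myl3 (174 ± 196 and 150 ± 133 CPM), Actc1 (250 ± 230 and 179 ± 130 CPM) and Actn2 (654 ± 613 and 552 ± 448 CPM) had slightly lower means at P7, with the spread inside the groups larger than the difference.

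Fetal isoforms had a median log2 fold change of -0.96, and 1 of 8 reached an unadjusted p below 0.05 in the direction of P1 (background 2.26%). This was Myh7, the myosin heavy chain of the fetal ventricle, with 264, 38.5, 105 and 518 CPM at P1. It had 101, 45.8, 69.3 and 59.6 CPM at P7, a log2 fold change of -1.75 (SE 0.81, adjusted p = 0.672). Tnni1, the slow skeletal troponin I of the fetal heart, had 677, 924, 607 and 1482 CPM at P1 and 579, 978, 596 and 424 CPM at P7 (-0.52, SE 0.45). Actn1, the alpha-actinin of non-muscle cells, had 137 ± 50.9 and 54.0 ± 44.9 CPM (-1.34, SE 0.88). Tnnt1 had 52.7 ± 63.5 and 63.8 ± 24.5 CPM. Myl4, Myl7, Acta1 and Acta2 had means of at most 25.3 CPM in either group, and for each of them the spread inside the groups was of the size of the mean or above it at P1 or at P7.

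**Figure D3:**
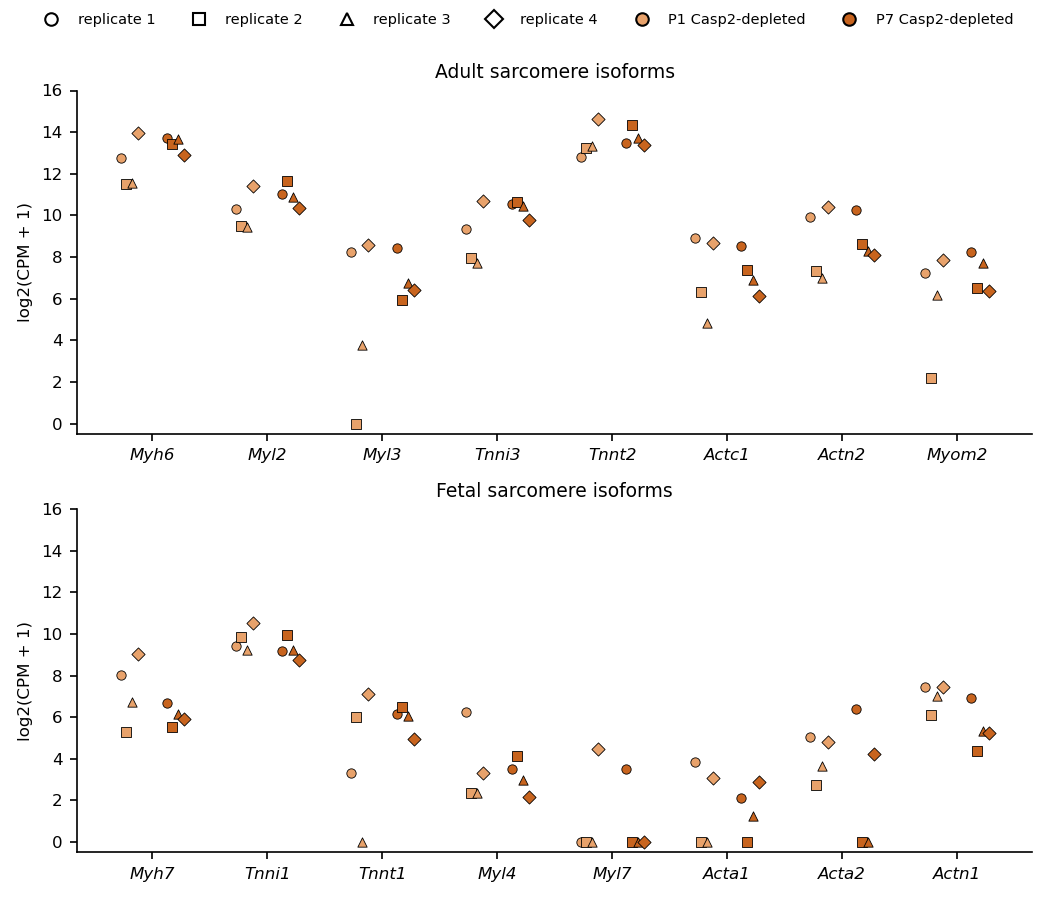
Levels of the 8 adult (top) and 8 fetal (bottom) sarcomere isoforms as log2(CPM + 1) in each Casp2-depleted library, by age and replicate. For Myh6 and Tnni3, P1 replicates 2 and 3 lie below all P7 values and P1 replicate 4 above all of them.

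Within libraries, the reads of 2 isoform pairs shifted from the fetal to the adult gene without overlap between the ages. The share of reads on Myh7, of all reads on Myh7 and Myh6, was 3.69%, 1.32%, 3.38% and 3.11% in P1 replicates 1 to 4. It was 0.752%, 0.409%, 0.528% and 0.779% in P7 replicates 1 to 4. All P7 libraries lay below all P1 libraries, P1 replicate 4 among them, with means of 2.87% ± 1.06 and 0.617% ± 0.179 (SD, n = 4 each). Tnni1 took 51.4%, 78.8%, 74.6% and 47.7% of the Tnni1 and Tnni3 reads at P1. It took 27.7%, 37.9%, 30.0% and 32.6% at P7, again with no overlap. Both differences had p = 0.0286 (exact permutation test, two-sided), the smallest that 4 against 4 libraries can give, and an adjusted p of 0.1 over 7 pairs. The share of Actn1 in Actn1 and Actn2 was 26.8% ± 17.8 at P1 and 9.16% ± 3.21 at P7 (adjusted p = 0.133, same exact permutation test). Myl4 of Myl4 and Myl3, Tnnt1 of Tnnt1 and Tnnt2, Myl7 of Myl7 and Myl2 and Acta1 of Acta1 and Actc1 had adjusted p of 0.5 or more in that exact permutation test. In the controls the share of Myh7 was 1.13% to 4.67% at P1 and 0.103% to 0.535% at P7, and that of Tnni1 was 53.7% to 91.7% and 17.8% to 27.0%. The pairs were compared after the levels had been seen, and a share depends on where the counted reads of each gene lie, so only its difference between libraries is read.

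No gene of the wider sarcomere was called. Of 36 tested genes of titin, the Z-disc and the M-band, 2 (5.56%) had an unadjusted p below 0.05 toward P7 and 0 toward P1, with a median of 0.32. Lmod2, which lets thin filaments elongate, had 317, 222, 242 and 1291 CPM at P1. At P7 it had 1247, 2211, 1475 and 1366 CPM, a log2 fold change of 1.60 (SE 0.41, adjusted p = 0.302). P1 replicate 4 alone lay within the P7 range, and without it Lmod2 was called. Nexn, a filamin-like Z-disc protein, had 2635, 1350, 1168 and 5346 CPM at P1 and 4921, 7923, 5410 and 3777 CPM at P7 (1.07, SE 0.47). Ankrd1, a stretch-responsive protein that binds titin, had 585, 206, 1204 and 2855 CPM at P1 and 3580, 5121, 3836 and 3313 CPM at P7, with no overlap (1.71, SE 0.85, adjusted p = 0.71). The giant spring protein titin, Ttn, had 10419, 1922, 4471 and 35824 CPM at P1. Its P7 values of 25867, 25511, 31453 and 14978 CPM lay inside that range (0.89, SE 0.80), and without P1 replicate 4 the log2 fold change was 2.08. Mybpc3 had 2651 ± 2597 and 4828 ± 1717 CPM, and Myom1 1499 ± 1288 and 2238 ± 636 CPM.

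At the intercalated disc, where CMs are joined end to end, 3 of 29 tested genes (10.3%, background 5.14%) had an unadjusted p below 0.05 toward P7, and the median was 0.18. The plakophilin Pkp4 had 259 ± 134 and 582 ± 257 CPM (log2 fold change 1.17, SE 0.50). Desmoglein Dsg2 had 250, 252, 102 and 238 CPM at P1 and 525, 797, 243 and 285 CPM at P7 (1.13, SE 0.52). Lmo7 had 1600, 660, 1310 and 5018 CPM at P1 and 4096, 3988, 4611 and 1805 CPM at P7, so that P1 replicate 4 held the highest of the 8 values (0.76, SE 0.34, and 1.55 without that library). The scaffold Tjp1 had 53.7 ± 20.1 and 113 ± 40.8 CPM, with all P7 values above those of P1. Of the dystrophin complex (23 tested genes, median -0.00) and of extracellular matrix and integrins (52 tested genes, median -0.01), 0 reached an unadjusted p below 0.05 in either direction. Hspg2, the basement membrane proteoglycan perlecan, had 130 ± 114 and 220 ± 118 CPM and Col4a1 126 ± 83.2 and 212 ± 126 CPM.

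Calcium handling genes had a median of 0.26, and 1 of 36 (2.78%) had an unadjusted p below 0.05. This was Trdn, triadin of the junctional sarcoplasmic reticulum, with 1191, 1818, 1133 and 2156 CPM at P1 and 2352, 4469, 2518 and 2052 CPM at P7 (0.85, SE 0.35, adjusted p = 0.672). Only P7 replicate 4 lay below the highest P1 library. Casq2, the calcium store protein, had 416 ± 441 and 715 ± 72.8 CPM, and the release channel Ryr2 11207 ± 5773 and 14739 ± 4713 CPM. Camk2a, a calmodulin-dependent kinase, had 879 ± 466 and 556 ± 244 CPM, a difference of -0.66 (SE 0.43).

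Ion channel genes showed 7 of 69 (10.1%, background 5.14%) at an unadjusted p below 0.05 toward P7 and 1 (1.45%, background 2.26%) toward P1, with a median of 0.18. Fgf13, an intracellular partner of sodium channels, had 1832, 1334, 771 and 2866 CPM at P1. It had 4707, 5482, 2732 and 2095 CPM at P7, a log2 fold change of 1.14 (SE 0.35, adjusted p = 0.672). P1 replicate 4 exceeded the lowest P7 library. Kcnk3, a background potassium channel, had 152, 250, 143 and 272 CPM at P1 and 502, 689, 427 and 336 CPM at P7, with no overlap (1.26, SE 0.51). Hcn2, a pacemaker channel, had 7.79 ± 6.49 and 71.7 ± 30.1 CPM, and Scn4a, the skeletal muscle sodium channel, had reads in 1 P1 library (5.98 CPM) and in all P7 libraries (27.0, 125, 41.8 and 51.2 CPM). In adrenergic and cyclic nucleotide signalling 1 of 44 (2.27%) reached an unadjusted p below 0.05. This was the phosphodiesterase Pde4d, with 2330 ± 356 and 3703 ± 1083 CPM (0.67, SE 0.32), while Prkar1a, a regulatory subunit of protein kinase A, had 50.7 ± 62.0 and 124 ± 83.5 CPM.

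No metabolic or mitochondrial gene was called. Of 80 tested genes of oxidative phosphorylation 1 (1.25%) had an unadjusted p below 0.05, and the median was 0.13. Fatty acid oxidation (50 tested genes) had a median of -0.00 with 1 gene at an unadjusted p below 0.05 (2%), and glucose use and glycolysis (36 tested genes) a median of -0.04 with 0. Eci2, an isomerase of fatty acid oxidation, had 69.8 ± 41.0 and 141 ± 50.6 CPM, and the carnitine carrier Slc25a20 103 ± 89.3 and 179 ± 58.2 CPM. The insulin-responsive glucose transporter Slc2a4 had reads in 1 P1 library (6.97 CPM) and in every P7 library (43.3, 11.9, 8.23 and 24.5 CPM; log2 fold change 3.58, SE 2.24). Gbe1, the glycogen branching enzyme, had 174 ± 69.1 and 83.3 ± 41.0 CPM (-1.06, SE 0.76). The coactivator Ppargc1b had 423 ± 258 and 689 ± 298 CPM. Ucp2, Fis1 and Cycs had 0 reads at P1 and were at least 24.5-fold, 23.8-fold and 3.29-fold higher at P7 by counting error alone. Fis1 had 27.0, 0, 2.74 and 2.10 CPM in the P7 libraries, so that most of its level came from replicate 1. Ndufa5 had 0.626 ± 1.25 and 13.6 ± 12.4 CPM.

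Mitochondrially encoded RNAs took 0.293%, 0.213%, 0.115% and 0.434% of the reads at P1 and 0.585%, 0.152%, 0.163% and 0.160% at P7. Among them mt-Nd2 had 92.7 ± 57.0 and 141 ± 143 CPM, mt-Rnr1 122 ± 136 and 187 ± 157 CPM and mt-Co1 45.5 ± 43.1 and 61.2 ± 55.2 CPM. Cytosolic ribosomal proteins (70 tested genes) had a median of 0.13 with 2 genes at an unadjusted p below 0.05 (2.86%). Rpl14 had 0.374 ± 0.747 and 17.1 ± 10.7 CPM. Rpl22 had no read at P1 and was at least 24.2-fold higher at P7, with 27.0, 0, 5.49 and 0 CPM in the P7 libraries. Of 67 mitochondrial ribosomal proteins 1 (1.49%) was at an unadjusted p below 0.05 toward P7 and 2 (2.99%) toward P1. Mrpl4 and Mrpl46 had no read at P7 (at least 31.3-fold and 10.9-fold lower), and Mrpl39 none at P1 (at least 8.78-fold higher).

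Splicing factors held both called genes named above, and 14 of 95 (14.7%) had an unadjusted p below 0.05 toward P7 with 0 toward P1. This compares with 5.14% of all genes, or 1.16% of the 11702 genes with a mean of at least 10 CPM. The median of the list was 0.36 and ranged from 0.03 to 0.93 when 1 library was left out. Luc7l3, a relative of Luc7l, had 1274, 3859, 2181 and 3230 CPM at P1 and 3206, 10440, 4535 and 4662 CPM at P7 (1.12, SE 0.32, adjusted p = 0.672). The groups overlapped through P7 replicate 1, which lay below P1 replicates 2 and 4. Acin1, a factor of the exon junction complex, had 785, 773, 561 and 1994 CPM at P1 and 1645, 3659, 2575 and 1895 CPM at P7 (1.25, SE 0.37). The SR-related Pnisr had 1136, 885, 929 and 3461 CPM at P1 and 3009, 5296, 3762 and 2460 CPM at P7 (1.18, SE 0.35). P1 replicate 4 lay inside the P7 range for both, and both were called without it. Rbm39, a U2AF-like splicing factor, had 1427 ± 783 and 2810 ± 1428 CPM (0.98, SE 0.36). Of the regulators of muscle splicing 0 of 20 had an unadjusted p below 0.05 in either direction, with a median of 0.06. Among those, Rbm20, which controls the splicing of titin, had 3087, 1385, 838 and 5241 CPM at P1 and 5643, 4893, 2936 and 2385 CPM at P7, and Rbfox2 had 232 ± 178 and 398 ± 151 CPM.

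Genes of mitosis and cytokinesis had the highest median of the pathway lists other than the genes of the study text, 0.99, and 58 of 77 (75.3%) were above 0, against 52.5% of all genes. For 9 of 77 (11.7%, background 1.48%) every P7 library exceeded every P1 library, and 6 (7.79%) had an unadjusted p below 0.05, but none was called. The median lay between 0.62 and 1.30 when 1 library was left out, and the larger share of zeros at P1 stands beside this count. Its part was not tested. Incenp, which anchors Aurora B at centromeres, had 115, 186, 52.7 and 105 CPM at P1. At P7 it had 305, 682, 323 and 388 CPM, a log2 fold change of 1.89 (SE 0.63, adjusted p = 0.672). Knl1, a kinetochore scaffold, had 2.00, 9.79, 0 and 11.5 CPM at P1 and 79.2, 49.0, 34.3 and 120 CPM at P7 (3.58, SE 1.53). In both genes the lowest P7 library was above the highest P1 library. The kinetochore gene Nuf2 and Prr11 had no read at P1 and reads in 2 and 3 P7 libraries, which put them at least 17.2-fold and 17.9-fold higher.

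Genes of DNA replication had a median of 0.31 with 3 of 75 (4%) at an unadjusted p below 0.05 toward P7. Mcm2 and Cdc7 had no read at P1 and were at least 4.76-fold and 6.22-fold higher. In the cohesin list, which holds the rings that tie sister chromatids together, 13 of 16 genes were above 0 with a median of 0.44, and 1 (6.25%) had an unadjusted p below 0.05. Smc1a had 127, 159, 67.5 and 329 CPM at P1 and 505, 443, 482 and 296 CPM at P7 (1.34, SE 0.53). Stag2 had 83.7, 64.3, 60.8 and 62.3 CPM at P1 and 98.7, 199, 128 and 135 CPM at P7, with no overlap (1.05, SE 0.90). Sgo2a, which protects cohesin at centromeres, had 4.66 ± 7.63 and 23.3 ± 2.72 CPM. Of G1 cyclins, CDK inhibitors and pocket proteins 3 of 37 (8.11%, background 5.14%) had an unadjusted p below 0.05 toward P7. E2f5 had 1 read at P1 and 90 at P7, and the inhibitor Cdkn2c had none at P1 and 21 at P7.

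The other members of the PIDDosome were measured better than Casp2 in 2 cases. Cradd, the adaptor, had 54.6, 99.3, 13.5 and 178 CPM at P1 and 181, 192, 144 and 174 CPM at P7 (1.00, SE 0.73, adjusted p = 1). Ankrd26, the centrosomal anchor, had 82.7, 93.0, 37.8 and 140 CPM at P1 and 117, 117, 76.8 and 25.9 CPM at P7, with a log2 fold change of -0.07 (SE 0.90). Pidd1 was detected in 2 P1 libraries and 1 P7 library with 20 and 9 reads. Of 23 tested genes of the PIDDosome and p53 pathway 0 had an unadjusted p below 0.05 toward P7 and 1 (4.35%) toward P1. That gene was Zmat3, a p53 target, with 5.01, 33.6, 0 and 21.9 CPM at P1 and no read at P7 (at least 31.0-fold lower). Trp73, of the p53 family, had 34.3 ± 15.5 and 5.31 ± 6.22 CPM (-2.67, SE 1.77).

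Centrosome genes had a median of 0.37 with 1 of 40 (2.5%) at an unadjusted p below 0.05, Tubg1, which had no read at P1 and 22 at P7. Cep68, a linker of centrosomes, had 119, 53.9, 37.1 and 48.8 CPM at P1 and 15.4, 15.0, 12.3 and 1.40 CPM at P7, with every P7 library lower (-2.54, SE 1.43, adjusted p = 0.772). Microtubule-associated proteins and tubulins, the list that held Mapt, had a median of 0.41, and 2 of 40 (5%) had an unadjusted p below 0.05. The second was Clip1, a tracker of growing microtubule ends, with 349, 175, 144 and 648 CPM at P1 and 736, 1093, 797 and 613 CPM at P7 (1.30, SE 0.48). Map4, the main microtubule-associated protein outside neurons, had 547 ± 295 and 935 ± 190 CPM (0.77, SE 0.43).

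Among cardiac transcription factors 0 of 42 had an unadjusted p below 0.05 and the median was 0.03. Mef2c had 201 ± 89.2 and 386 ± 116 CPM, and the ventricular factor Irx4 60.0 ± 67.9 and 20.8 ± 27.3 CPM. Nuclear receptors had a median of 0.24 with 2 of 33 (6.06%, background 5.14%) at an unadjusted p below 0.05 toward P7. Thyroid hormone receptor Thrb had 32.6, 80.4, 47.9 and 93.2 CPM at P1. It had 317, 106, 266 and 172 CPM at P7, all above P1 (1.76, SE 0.64, adjusted p = 0.672). The corepressor Ncor1 had 1236 ± 478 and 2384 ± 1106 CPM (0.95, SE 0.37), and Rora 974 ± 364 and 1456 ± 570 CPM. In the circadian clock list 0 of 16 reached an unadjusted p below 0.05. Bhlhe40 had 34.6, 101, 25.7 and 19.9 CPM at P1 and 17.2, 8.69, 0 and 16.1 CPM at P7, with every P7 library lower, while Tef had 18.1 ± 22.2 and 59.8 ± 37.1 CPM.

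Imprinted growth genes had a negative median of -0.23, and 2 of 23 (8.7%, background 2.26%) had an unadjusted p below 0.05 toward P1 with 0 toward P7. Plagl1, a growth-restraining zinc finger factor, had 741, 2605, 1506 and 1791 CPM at P1 and 625, 1814, 531 and 701 CPM at P7 (-0.86, SE 0.40). Grb10, an inhibitor of insulin and IGF signalling, had 486, 49.7, 91.8 and 505 CPM at P1 and 151, 110, 72.7 and 53.3 CPM at P7 (-1.55, SE 0.75). The values of P1 replicates 2 and 3 lay inside the P7 range or below it for Grb10, so its difference rested on the other two P1 libraries. The antisense RNA Airn had 3836 ± 1896 and 2544 ± 1271 CPM and Meg3 278 ± 313 and 138 ± 120 CPM. Of growth factor receptors and insulin signalling genes 0 of 37 had an unadjusted p below 0.05 toward P7 and 1 (2.7%) toward P1, Grb10, and Ghr, the growth hormone receptor, had 587 ± 217 and 919 ± 445 CPM.

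Sterol synthesis had a median of -0.58 over 21 tested genes, and 1 (4.76%) had an unadjusted p below 0.05 toward P1. Ebp, a sterol isomerase, had reads in 2 P1 libraries and none at P7 (at least 30.7-fold lower). Lss, the cyclase that makes lanosterol, had 28.6, 0, 0 and 27.4 CPM at P1 and 1 read at P7. Srebf2, the transcription factor that drives the pathway, had 86.2, 145, 152 and 76.7 CPM at P1 and 79.6, 26.9, 21.9 and 43.4 CPM at P7 (-1.42, SE 0.97). Stress and immediate early genes had 2 of 23 (8.7%) at an unadjusted p below 0.05, Egr1 and Klf2, both with no read at P1 and with most of their P7 reads in replicate 1. Of the ubiquitin ligases 0 of 27 reached an unadjusted p below 0.05, with Huwe1 at 243 ± 243 and 463 ± 134 CPM and Klhl38, a muscle Kelch protein, at 24.1 ± 21.1 and 84.8 ± 38.0 CPM. Nuclear long noncoding RNAs other than Mhrt had no call. Malat1, the gene with the most reads, had 59239, 12481, 21706 and 90914 CPM at P1 and 100908, 53237, 39002 and 29899 CPM at P7 (0.27, SE 0.76), and Rn18s-rs5, a ribosomal RNA copy, 23472 ± 19425 and 59295 ± 25600 CPM (1.34, SE 0.62).

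Genes that the study named for its own comparisons were low throughout, and since they were chosen by the study on these samples they give no independent evidence of a direction. All 12 were tested, 10 were above 0, and 2 (16.7%) had an unadjusted p below 0.05. These were Hes1, a target of Notch, and Mad2l1 of the spindle checkpoint, both with no read at P1 and at least 25.6-fold and 14.3-fold higher at P7. Foxm1, which drives cell cycle genes, and E2f8, which the study names for ploidy control, had 4 and 8 reads at P1 and 41 and 82 at P7. Cdkn1a, the CDK inhibitor p21, had 0 reads at P1 and 1 at P7. Gas5, Sqle, Dusp8, Trim39, Lin37, Kif18a and Bin1 had at most 28.5 CPM in any of the 8 libraries.

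Under the size factors of DESeq2 in place of TMM the median of all genes moved from 0.07 to -0.07. The medians of oxidative phosphorylation, cytosolic ribosome, muscle splicing regulators, cardiac transcription factors, growth factor receptors and G1 cyclins then turned negative and that of ion channels came to 0.00.

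**Figure D4:**
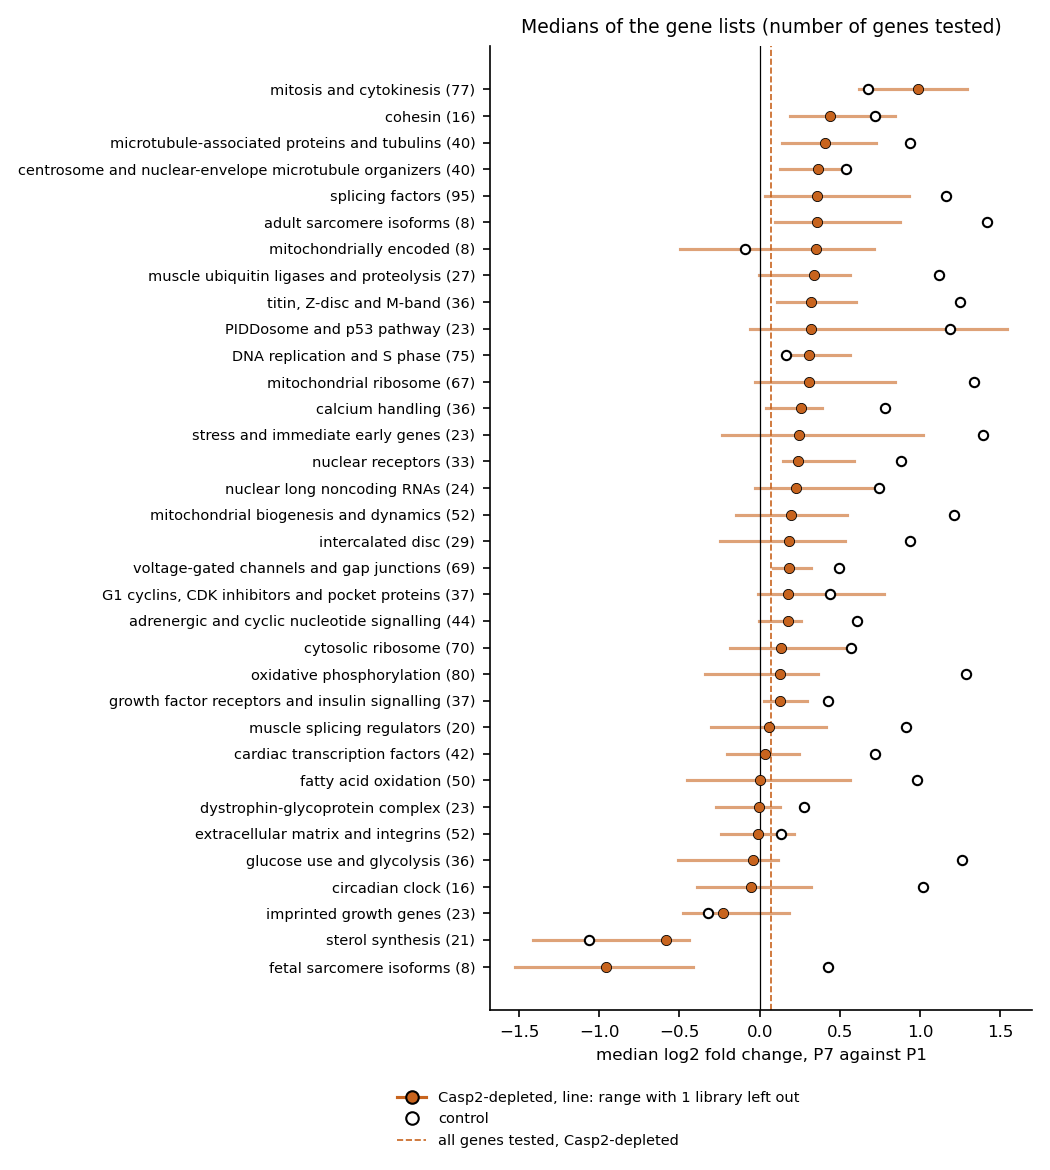
Median log2 fold change of P7 over P1 for each pathway list other than the genes of the study text, with its number of tested genes, in Casp2-depleted (filled, with the range when 1 library is left out) and control nuclei (open); the dashed line is the median of all genes in Casp2-depleted nuclei. Of the lists drawn, mitosis and cytokinesis lies highest at 0.99 in Casp2-depleted nuclei and fetal sarcomere isoforms lowest at -0.96, and both kept their sign under the size factors of DESeq2.

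Control nuclei were compared between the same ages to ask whether the first week differed without caspase-2. In the controls 2 genes were called, Mapt and Mhrt (0.00982% of genes), and at an unadjusted p below 0.05 there were 920 higher (4.52%) and 438 lower (2.15%). No gene was called for a difference between the genotypes in the change from P1 to P7 (0.0%), while 1392 (6.83%) had an unadjusted p below 0.05. DESeq2 called 66 such genes and limma-voom 4 with TMM factors and 2 with quantile normalization. The median of all genes was 0.21 in the controls and 0.07 in Casp2-depleted nuclei.

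For each of the 4 called genes the genotypes differed by less than 1 standard error of the difference. Mhrt had a log2 fold change of 1.86 (SE 0.31) in the controls, and the difference between genotypes was -0.14 (SE 0.40, edgeR adjusted p = 1). Mapt had 3.39 (SE 0.69) in the controls, with a difference of -0.63 (SE 0.83, adjusted p = 1). Luc7l and Rbm25 were not called in the controls (log2 fold changes 1.81 and 1.17, edgeR adjusted p = 0.143 and 0.4), yet their differences between genotypes were -0.00 (SE 0.59) and 0.19 (SE 0.44).

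Ttn, Mybpc3 and the adult sarcomere isoforms as a list had larger fold changes in the controls, without a test that separated the genotypes. Ttn had 2.22 (SE 0.92) in the controls and 0.89 (SE 0.80) in Casp2-depleted nuclei, Mybpc3 2.21 and 0.86 and Myh6 1.56 and 0.64, each with an edgeR adjusted p of 1 for the difference. Without P1 replicate 4 the values of Casp2-depleted nuclei were 2.08 for Ttn, 1.75 for Mybpc3 and 1.36 for Myh6. These were the highest values when 1 library was left out, and the lowest were 0.53, 0.57 and 0.38. Among the P1 controls replicate 2 was low, with 1495 CPM of Myh6 against 7400 and 7330 CPM in the others. Control values without that library are not given here. The medians of adult isoforms were 1.42 and 0.36. The latter ranged from 0.095 to 0.876 when 1 library was left out, and was 0.88 without P1 replicate 4. In the controls 3 of 8 had an unadjusted p below 0.05 toward P7, against 4.52% of all genes. For fetal isoforms the medians were 0.42 in the controls and -0.96 in Casp2-depleted nuclei, but the control median includes genes near the floor. In the P1 controls Acta1 and Myl7 had no read and Myl4 at most 9.50 CPM. Control Myh7 had 73.2, 84.3 and 173 CPM at P1 and 22.4, 57.4, 93.3 and 13.5 CPM at P7. Control Tnni1 had 608, 1263 and 914 CPM at P1 and 689, 562, 356 and 463 CPM at P7. For Tnnt1 every P7 control exceeded every P1 control. In the controls 0 of 8 fetal isoforms had an unadjusted p below 0.05 in either direction. The shares of Myh7 and Tnni1 given above were lower at P7 in both genotypes. Splicing factors had medians of 1.16 and 0.36. In the controls 24 of 95 (25.3%) were at an unadjusted p below 0.05 toward P7, against 4.52% of all genes. The P1 controls had 60.7% to 73.9% of reads on no gene and so lay near P1 Casp2-depleted replicates 2 and 3, not near replicates 1 and 4. With a term for the share of reads outside genes edgeR called 0 genes for a difference between genotypes (1235 at an unadjusted p below 0.05), and the median of that difference over all genes moved from -0.18 to 0.09.

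For mitosis and cytokinesis the list had a median of 0.68 in the controls and 0.99 in Casp2-depleted nuclei. With 1 library left out the latter ranged from 0.62 to 1.30, which gives the weight of single libraries and is not an interval. Whether the medians differ between genotypes was not tested. The same number of its genes, 6 of 77, had an unadjusted p below 0.05 toward P7 in each genotype.

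Fold changes of both genotypes were also set side by side by the level of the gene. Among 88 genes with a mean of at least 1000 CPM, 89.8% had the same sign in both genotypes and Pearson's r of the fold changes was 0.741. With at least 300 CPM (467 genes) the values were 80.5% and 0.588, and with at least 100 CPM (1909 genes) 70.04% and 0.477. Over 11628 genes with a mean of at least 10 CPM and an annotated length r was 0.0691. These correlations are across genes, which are not independent replicates, and the fold changes share 1 fit and 1 set of TMM factors but no library.

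**Figure D5:**
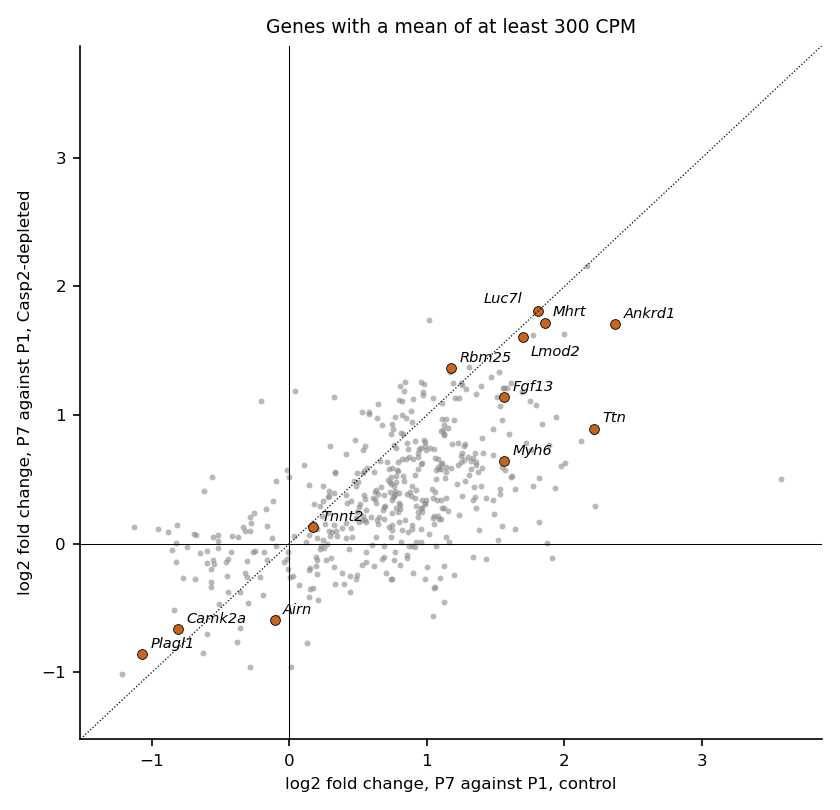
Log2 fold change of P7 over P1 in control (x axis) and Casp2-depleted nuclei (y axis) for the 467 genes with a mean of at least 300 CPM, with the line of equal change dotted. Mhrt, Luc7l and Rbm25 lie near the line, Ttn and Myh6 below it.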

How the data were processed

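Counts of reads per gene were deposited by the authors, 1 table per library. Per the labels and the study's methods, reads of a 3′ low-input kit were trimmed with cutadapt 4.0, aligned with STAR 2.6.1e to GRCm39 (Ensembl annotation) and counted with HTSeq 2.0.3 over whole genes, and the use of strand or molecular identifiers is not given in the sources used here. The 3 libraries that the study left out for low quality (1 P1 control, 1 P14 control and 1 P14 Casp2-depleted) were left out. Reads on no gene, kept out of library sizes, are given as shares in the report.

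Counts were tested with edgeR 4.0.16 in R 4.3.3 (TMM factors, quasi-likelihood F-test, 1 mean for each of 6 groups of genotype and day, 21 libraries, 15 residual degrees of freedom). The study used limma, which was run here as limma-voom among the alternatives. A gene was tested if its reads summed to 10 or more and came from 3 or more libraries, which left 20368 of 56923 identifiers. Robust estimation of the prior degrees of freedom was chosen after the data had been seen, and the fit without it is an alternative. The biological coefficient of variation was 1.5. Each SE of an edgeR fold change or genotype difference was derived from the test, as its absolute log2 value over the square root of the F statistic. P-values measure the spread between pools of hearts. limma 3.58.1 and DESeq2 1.42.0 were alternatives. Library measures and isoform shares were compared by exact permutation tests (scipy 1.17.1), two-sided.

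Named genes were the called genes, filled up to 15 in each direction by the smallest unadjusted p among genes with a mean of at least 10 CPM and no overlap, the members of the sarcomere, PIDDosome and study text lists, up to 4 members of each other list by smallest p, and the 5 genes with the most reads. The members, gene lists and tests were chosen with earlier results of these data known. Symbols were matched from GENCODE vM39 for 56236 identifiers (99.5% of reads).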

Additional observations from a re-analysis of the deposited data

Results flagged for a closer look

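Single libraries stood apart from the other 3 of their group in 15 of 169 values examined by Dixon's criterion (32 groups of library measures and 137 groups of genes with a mean of at least 100 CPM); chance gives about 1 in 20.

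Among the library measures, P7 replicate 1 had 0.585% of its reads on mitochondrially encoded genes, while the other P7 libraries had 0.152% to 0.163%. P7 replicate 4 had a summed macrophage marker level of 232.8 CPM, against 50.6 to 54.6 CPM in the others.

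P1 replicate 4 was the high library in 4 genes. Lmod2 had 1291 CPM there against 222.4 to 316.8 CPM, Acin1 1994 CPM against 560.9 to 784.9 CPM, Pnisr 3461 CPM against 885.5 to 1136 CPM, and Rn18s-rs5 52370 CPM against 11330 to 17180 CPM. P1 replicate 3 was low in Rora, with 433.4 CPM against 1106 to 1220 CPM, and in Dsg2, with 101.9 CPM against 238.1 to 252.5 CPM. P1 replicate 1 was high in Stag2, with 83.7 CPM against 60.8 to 64.3 CPM.

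At P7, replicate 1 was high in Myl3 (346.9 CPM against 60.1 to 108.4 CPM), Actn2 (1220 CPM against 274.0 to 399.1 CPM) and Meg3 (317.6 CPM against 70.6 to 84.8 CPM). P7 replicate 2 was high in Atad2 (455.2 CPM against 192.7 to 202.5 CPM), Rbm39 (4937 CPM against 1914 to 2328 CPM) and Plagl1 (1814 CPM against 530.8 to 700.8 CPM).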

How the results depend on the processing

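The 4 calls of P7 over P1 became 46 with DESeq2 (37 higher and 9 lower, 1 shared), 8 with limma-voom and TMM factors (0 shared), 12 with limma-voom and quantile normalization (1 shared), 2 at equal depth, 2 with upper-quartile factors, 1 with DESeq2's size factors, 1 with the 2 groups alone, 0 with filterByExpr and 0 with all 24 libraries. With a term for the share of reads outside genes 5 genes were called, 1 shared, and Mhrt, Rbm25 and Luc7l lost their calls. Without robust estimation, an alternative added after seeing the data, 5 genes were called, 2 of them shared. Leaving out 1 library gave 1 to 13 calls. The 0 genotype differences became 66 with DESeq2, 4 with limma-voom and TMM factors and 2 with quantile normalization, and stayed 0 when 1 library was left out. The causes were not tested.

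Replicate numbers, which the deposited names call batches, were shared between ages. Deviations of same-numbered P1 and P7 libraries correlated at 0.271, 0.0224, 0.0858 and -0.254 over 11704 genes, and P1 replicate 4 correlated best with P7 replicate 1 (0.352), so the numbers were not taken as pairs. With a replicate block 3 genes were called, Rbm25 and Mapt among them, and 0 differed between genotypes. A batch held 1 library per group, too few for values within batches.

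The median of ion channel genes was 0.0 with DESeq2's size factors (0.18 with TMM). When 1 library was left out, the medians ranged from 0.139 to 0.725 for microtubule-associated proteins, 0.144 to 0.589 for nuclear receptors, 1.168 to 3.103 for the genes of the study text and -2.006 to 0.54 for Schwann cell markers. The P7 minus P1 difference ranged from -166300 to 458400 for reads on genes, -0.1055 to 0.05799 percentage points for mitochondrially encoded reads, -38.7 to 41.27 CPM for fibroblast, -21.66 to 3.035 CPM for epicardial and -60.95 to 4.52 CPM for macrophage markers, and, in percentage points, -0.4519 to 2.378 for the share of Acta1 in Acta1 and Actc1 and -0.1882 to 0.1213 for that of Myl7 in Myl7 and Myl2. For the share of Myh7 in Myh7 and Myh6 it ranged from -2.776 to -1.986, and for Tnni1 in Tnni1 and Tnni3 from -36.23 to -25.86.

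Of 149 genes of the text 25 changed sign under at least 1 setting, 13 of them among the 69 with a mean of at least 100 CPM, and none of the 4 called genes did. Depth limits low genes. With 4 pools a group, changes above the fold threshold, such as those of Ckmt2 and Knl1, were left uncalled as well as smaller ones.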
